A study of Homo sapiens with 402 samples.

Results

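The replication-dependent histone genes are the genes of the core histones H2A, H2B, H3 and H4 and the linker histone H1 whose symbols begin with HIST followed by a cluster number, or carry the newer names H1-1 to H1-6, H2AC, H2BC, H3C and H4C. The rule matched 70 of the 34718 symbols of the second sequencing run and 40 of the 15081 of the first. All 70 reached a group mean of 0.2 CPM (read counts scaled to a common library total) in some group, and 35 reached it in all 6 control groups, whereas 15 reached it in none of those. The smallest of their highest group means were 0.285 CPM (H2AC5P, a pseudogene) and 0.419 CPM (H2BC16P, another). By chromosome, 57 members lie on chromosome 6 and 13 on chromosome 1, and 8 are annotated as pseudogenes.

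The cells were MCF10A, a non-tumorigenic epithelial line from human breast, wild type and at passage 105. They were exposed for 48 h to 1 of 21 chemicals at 0.025, 0.25, 2.5 or 25 µM, and 401 of 402 libraries entered the comparisons. The 15 water controls of plate 3153-AT served arsenic, cadmium, copper, lead and mercury. The 15 DMSO controls of plate 3206-AT served BPA, BPF, BPS, MPB and PPB, and the 15 of plate 3284-AT served DCB_14, DCP_25, PCB153, PCB187 and thiram. On plate 3240-AT, PFDA, PFNA, PFOS and phenanthrene were set against 12 DMSO controls and PFOA against 4 water controls. DDE alone was in the first run, on plate 2250-AT. Its libraries carried the solvent DMSO and the 8 controls carried water, so that DDE and solvent cannot be told apart there. For these 8 controls the plate named is 3153-AT, and their barcode, shared with the DDE libraries, places them on 2250-AT. Each dose had 4 libraries, said to be biological replicates, except cadmium at 25 µM (2 used) and MPB and PPB at 0.025 µM (3 each). Whether replicates came from separate cultures is not stated, so p-values measure the spread between these libraries, which may be technical.

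Median depth per plate was 6.42 M counts on plate 2250-AT and 11.9 to 13.8 M on the others. On plate 3153-AT the lower-numbered controls averaged 20.7 M counts and the higher-numbered ones 3.43 M, and on plate 3284-AT 18.2 and 3.4 M. The labels do not say what the numbers stand for. Dosed replicates 1 and 2 were paired with the lower-numbered controls, and 3 and 4 with the higher-numbered ones, wherever results are given by number below. CPM values are scaled with TMM factors, and a gene is called where its adjusted p (edgeR quasi-likelihood test, Benjamini-Hochberg over all genes of the comparison) was under 0.05.

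Histone mRNA made during DNA replication is unusual in that most of it has no poly(A) tail. The transcript is cut just past a short stem-loop, which the stem-loop binding protein SLBP recognises, and it is degraded when replication stops. Many of these genes can also use a poly(A) site further downstream, and such tailed forms are known from cells that differentiate or leave the cell cycle. The labels do not say whether the cDNA was primed on poly(A) or whether reads were counted by strand. In bulk cultures, fewer cells in S phase and less histone RNA per cell cannot be told apart.

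The stem-loop is shown because it marks the normal end of the message. The histone stem-loop was searched by its known consensus in GENCODE v29 transcripts, on the transcript strand. It matched 113 of 206694 transcripts (0.0547%) and a transcript of 30 members. In 22 of the 30, a transcript was annotated to run 100 or more bases past it. A member without a match has only a transcript model that does not hold these letters. Capitals mark the 2 arms of the stem and lower case the loop, written 5′ to 3′. The first form was found in 15 members, the second in 4 and the third in 4:
H2BC8: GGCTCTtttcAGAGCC
H4C8: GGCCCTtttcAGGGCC
H3C8: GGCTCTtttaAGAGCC

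Promoters are shown for 4 of the members whose groups did not overlap under arsenic or thiram at 25 µM. Of the 70 members, 57 had a RefSeq promoter (GRCh38.p14, 250 bases before to 50 after the start). On either strand, CCAAT occurred in 49 of the 57 (86%) against 34.6% of 35116 promoters of that length. TATAAA occurred in 40 (70.2%) against 11.5%. The octamer ATTTGCAT, the recognition sequence of OCT1 (POU2F1), was in 11 of 14 H2A and 14 of 17 H2B promoters and in no H1, H3 or H4 promoter, against 1.77% of all. CCAAT was in every H1, H2A, H2B and H3 promoter and in 2 of 10 of the H4 genes. Where an H2A and an H2B gene start close together on opposite strands, their windows overlap. A single site is then counted for both genes, as the octamer of H2AC20 and H2BC21 is. The 250 bases before the start are printed with CCAAT, ATTTGCAT and TATAAA on either strand in capitals, where matches that overlap form 1 longer run. H2BC11 is at chr6:27132796-27133045 on the minus strand, H2BC12 at chr6:27146859-27147108 (minus), H3C10 at chr6:27809801-27810050 (plus) and H4C8 at chr6:26285535-26285784 (minus), where none of the 3 motifs was found:
H2BC11: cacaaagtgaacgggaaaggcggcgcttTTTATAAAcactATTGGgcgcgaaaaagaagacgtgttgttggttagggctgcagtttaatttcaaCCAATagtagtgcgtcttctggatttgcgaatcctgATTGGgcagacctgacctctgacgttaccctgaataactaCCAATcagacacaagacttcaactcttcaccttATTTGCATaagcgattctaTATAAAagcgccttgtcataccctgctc
H2BC12: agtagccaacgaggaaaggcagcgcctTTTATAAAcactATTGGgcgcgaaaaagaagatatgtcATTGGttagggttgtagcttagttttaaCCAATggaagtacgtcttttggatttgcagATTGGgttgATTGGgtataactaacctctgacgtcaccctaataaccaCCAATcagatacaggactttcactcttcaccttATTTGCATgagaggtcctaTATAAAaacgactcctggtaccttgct
H3C10: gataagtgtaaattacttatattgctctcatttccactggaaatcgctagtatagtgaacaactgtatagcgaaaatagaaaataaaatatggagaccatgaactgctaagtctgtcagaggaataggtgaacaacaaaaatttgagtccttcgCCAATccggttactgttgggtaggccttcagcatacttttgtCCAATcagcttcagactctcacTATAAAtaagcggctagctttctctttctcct
H4C8: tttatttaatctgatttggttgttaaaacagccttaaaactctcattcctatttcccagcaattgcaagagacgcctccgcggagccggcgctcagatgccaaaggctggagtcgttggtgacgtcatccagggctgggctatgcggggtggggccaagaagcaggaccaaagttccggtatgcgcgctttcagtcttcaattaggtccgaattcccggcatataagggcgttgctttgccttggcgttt

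In the second run, the histone signal was mostly that of 1 gene. H4C3, which encodes histone H4, took 72.0% of the summed CPM of all members over the 377 libraries of that run, and the 6 members with the highest means took 85.0%. The others of the 6 were H2AC6 (H2A), H2BC12 (H2B), H3C8 (H3) and the linker histones H1-1 and H1-2. Per kilobase of the longest v29 transcript, the mean level over 61 controls was 736 ± 230 CPM (SD) for H4C3, 29.6 ± 11.8 for H2BC12 and 21.2 ± 8.11 for H2AC6. The H1-1, H2BC4, H1-4 and H1-2 levels per kilobase followed at 8.50, 7.43, 7.34 and 7.32, and these 4 did not differ beyond their spread. The order of H2BC12 and H2AC6 rests on their annotated lengths of 381 and 1668 bases. Without division by length, their means were 11.3 and 35.3 CPM.

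On the DDE plate the same order did not hold. Per kilobase, H4C3 was at 121 CPM in its 8 controls, H2AC6 at 103 and H2BC12 at 101. By family, the summed CPM in controls was 329 for H4 in the second run and 105 on the DDE plate, 44.5 and 185 for H2A, and 41.1 and 177 for H2B. The run, the plate and the symbols listed differ together, so these levels are set side by side without a test.

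Among controls of the second run, H4C3 ran from 139 to 331 CPM (median 229) on plate 3153-AT, 219 to 529 (352) on 3206-AT, and 212 to 474 (329) on 3284-AT. On plate 3240-AT it ran from 253 to 578 (320) in DMSO and from 292 to 335 in water. The spread on plate 3153-AT went with the library number: H4C3 averaged 283 ± 38 CPM in the 8 lower-numbered controls and 171 ± 25.8 in the 7 higher-numbered. On plate 3284-AT the same averages were 423 ± 58.1 and 268 ± 38.1, and on plate 3240-AT they were 404 ± 101 and 293 ± 24.8. Plate 3206-AT went the other way, with 279 ± 67.6 in the lower-numbered and 427 ± 60.7 in the higher-numbered controls.

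**Figure D1:**
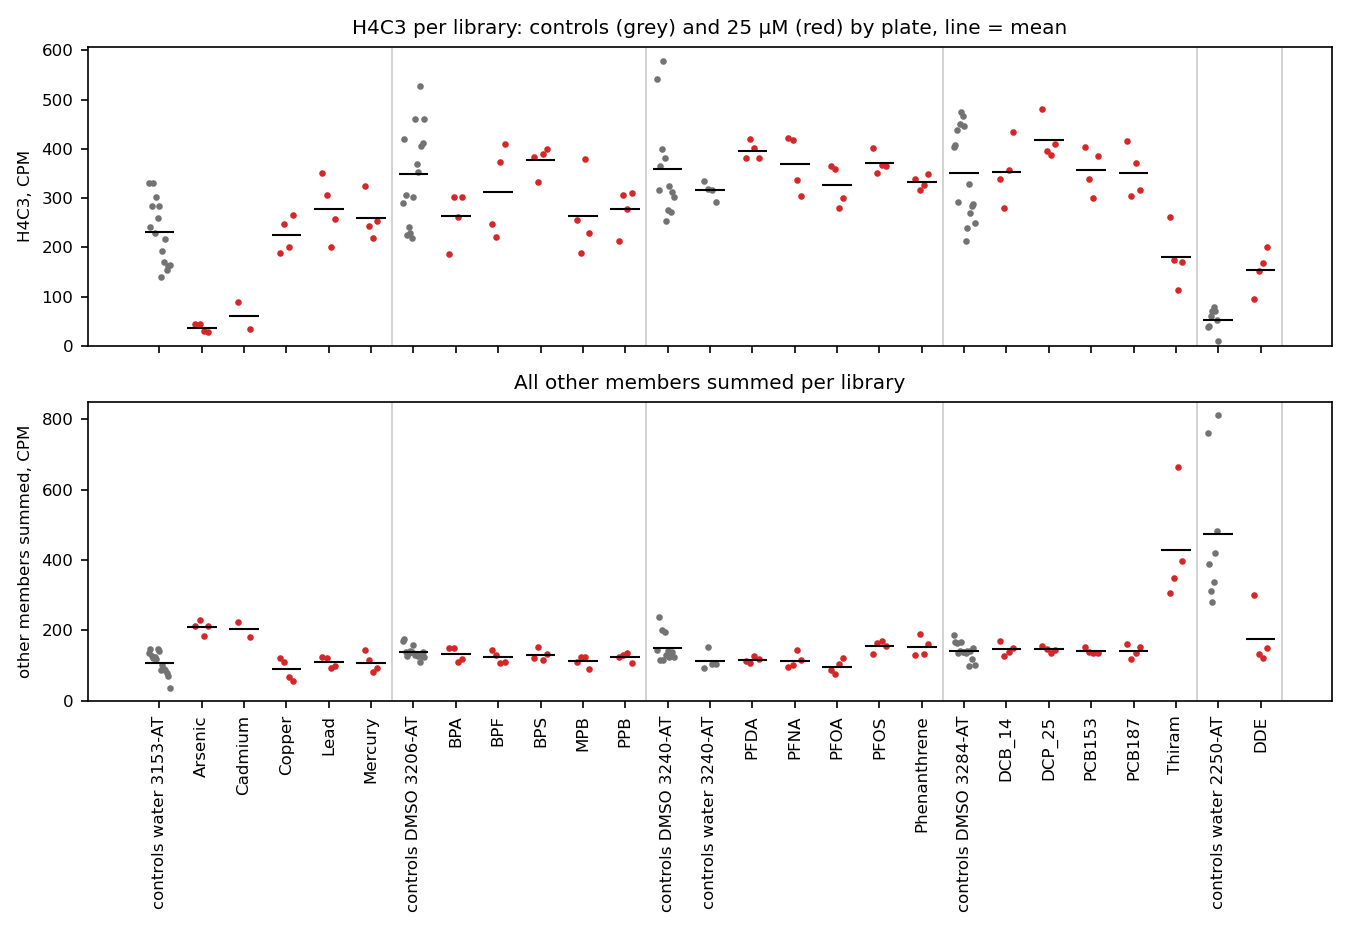
H4C3 (top) and the sum of all other members (bottom) in CPM, 1 point per library, for the controls (grey) and the 25 µM libraries (red) of each plate, with the mean as a line. The 4 arsenic libraries sit at 28.6 to 45 CPM for H4C3, below all controls of plate 3153-AT, and the 4 thiram libraries sit at 306 to 666 CPM for the other members.

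Arsenic at 25 µM changed the make-up of the histone signal. H4C3 fell. Of the H2B genes 5 rose and 3 fell, 2 other H4 genes and H1-2 rose, and 3 H3 genes and 4 of 6 H1 genes fell. Of 63 members tested, 10 rose and 11 fell, beside 41.4% of all 24295 genes tested (23.2% higher, 18.2% lower) and thus 33.3% of the members. The median log2 difference was -0.60 over the members and 0.00 over all genes. With the 17 members whose arsenic or control group was empty set to their bound, the members' median was 0. DESeq2 called 9 higher and 15 lower, which was 50% of the 48 members to which it gave an adjusted p, beside 48.4% of 17229 genes. Whether the members' share lay below or above that of all genes thus turned with the test. Scaling with DESeq2-type (RLE) factors moved the median of all genes from 0.00 to 0.14 and gave 11 higher and 9 lower members.

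H4C3 was at 43.6, 45, 30.3 and 28.6 CPM in the 4 arsenic libraries, below every control. The log2 difference was -2.69 (SE 0.22, adjusted p 5.39e-19, edgeR). At the lower doses of arsenic, H4C3 averaged 270, 293 and 324 CPM, above the control mean of 231. The fall at 25 µM held within each number set, with 44.3 against 283 CPM in the lower-numbered and 29.4 against 171 in the higher-numbered libraries. The other members together rose from 108 CPM in controls (37.6 to 148) to 209 (183 to 229), and the share of H4C3 in the histone total went from 68.2% to 14.9%.

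The H2B gene H2BC11 was at 26.9, 22.1, 25.9 and 26.6 CPM under arsenic and at 0 to 5.43 in controls (median 1.08). The groups did not overlap, with a log2 difference of 4.35 (SE 0.31, adjusted p 8.33e-27, edgeR). H4C8, an H4 gene whose upstream sequence is printed above, was at 7.93, 17.2, 11.2 and 12 CPM against 0 to 1.03 (log2 4.76, SE 0.46, adjusted p 4.81e-18, edgeR). It rose while H4C3, which also encodes histone H4, fell. The linker histone gene H1-2 was at 25.8, 29.7, 26 and 27.1 CPM against 0 to 9.26 in controls, again without overlap (log2 2.47, adjusted p 1.88e-12, edgeR).

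H2BC12 was at 34.5, 49.8, 23.8 and 41 CPM, above all controls (0 to 20.3), a log2 difference of 1.42. H4C9, named after its values were seen, lies on the opposite strand within the annotated span of H2BC12. Its CPM was 11.6 to 15 under arsenic and 0 to 5.17 in controls (log2 1.94), and since strand handling is not stated, reads of these 2 genes could be shared. H3C6, an H3 gene, was at 9.64 to 14.5 CPM against 0 to 6.56 (log2 2.11). H2BC8 rose by 2.13 and H2BC15 by 2.11 on the log2 scale, both with overlapping groups. H2AC1 had no count in any of the 15 controls and 29 in arsenic, which makes it at least 50.5-fold higher, from a floor of 3 counts over the control group. In all, 7 of 63 members (11.1%) had arsenic and control groups that did not overlap, beside 17.5% of all genes tested, and all 7 were called.

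H3C8 was at 0, 0, 0.130 and 1.04 CPM under arsenic and at 0 to 10.5 in controls (median 6.61). Its log2 difference was -4.12 (adjusted p 4.20e-06, edgeR). The groups overlapped, since the lowest controls were also at 0. H3C10, another H3 gene, was at 0 in 3 arsenic libraries and 1.29 CPM in the fourth, against a control median of 2.35 (log2 -3.42, adjusted p 0.00126, edgeR). By number, H3C8 was called in the lower-numbered libraries (adjusted p 1.26e-05, edgeR) and not in the higher-numbered (0.178), where the means were 0.584 against 2.78 CPM. H3C10 was called in neither set alone (adjusted p 0.056 and 0.0948, edgeR), with means of 0.643 against 4 CPM and 0 against 1.25 CPM.

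H3C11 had 2 counts under arsenic and 389 in controls, a ratio of 39.6 (95% counting interval 10.9 to 328). H1-3 and H2BC7 had no count under arsenic and were at least 16.6-fold and 11.6-fold lower, from the floor of 3 counts. H1-5 had 4 counts (log2 -3.35). H1-1, at 0.857, 2.03, 0 and 2.07 CPM against a control median of 3.45, fell by 1.56 on the log2 scale (adjusted p 0.00604, edgeR). H2AC6, the leading H2A gene, was at 39.2, 27.6, 39.4 and 33.5 CPM against 8.51 to 45.7 (median 28.7) and did not pass. The remaining calls, named after their values were seen, were H2BC4 (log2 1.39), H2BC19P (-1.31), H1-4 (-2.06) and H2BC9 (-2.14).

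By family, H2B had 5 higher and 3 lower of 19 tested, H4 had 2 and 1 of 12, and H2A had 1 and 0 of 15. H3 had 1 higher and 3 lower of 11, and H1 had 1 and 4 of 6, where H1-2 was the member that rose. The 5 members listed as able to make tailed mRNA (H1-2, H2AC6, H2BC5, H2BC12 and H2BC21) had 2 higher and none lower. Their sum went from 48.3 to 104 CPM, and that of the other members without H4C3 from 59.4 to 104.9 CPM. Members annotated to run past the stem-loop had 6 higher and 5 lower of 20, and the rest 4 and 6 of 43. The rest includes the members without a stem-loop match, H2BC12 and H1-2 among them, so it is not a set shown to end there. Of all genes, 41.4% were called.

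**Figure D2:**
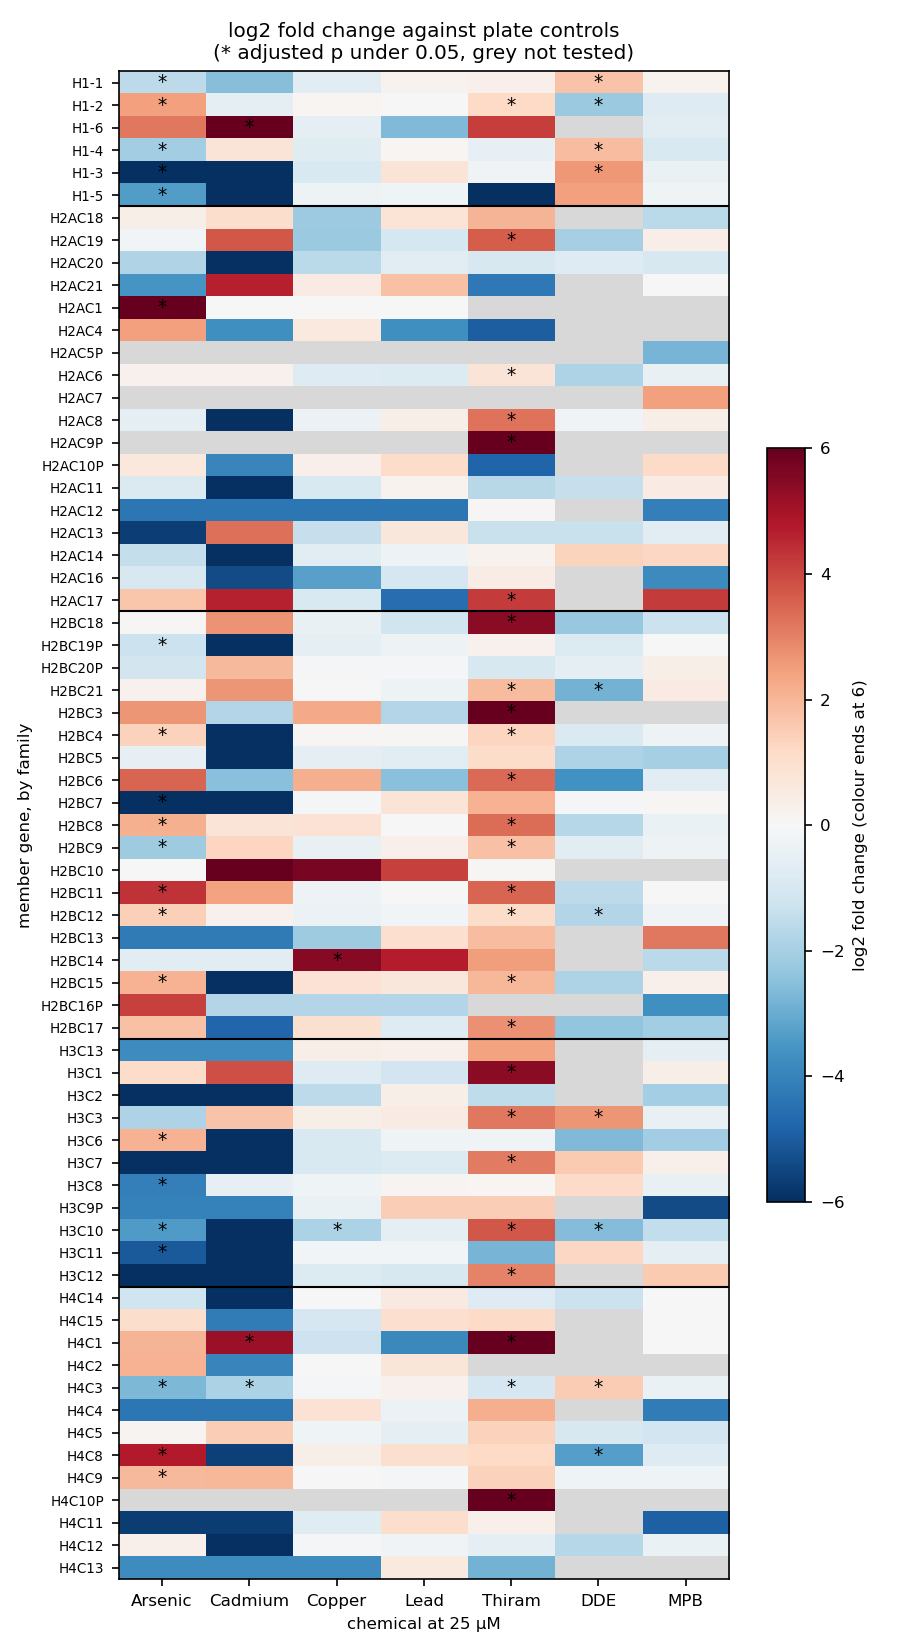
Log2 fold change of each member at 25 µM against the controls of its plate, in columns by chemical and rows by family, with red higher, blue lower, grey not tested and an asterisk for an adjusted p under 0.05. The colour ends at 6, and the darkest cells are mostly members with no count in 1 group, whose fitted fold is no bound. Asterisks number 21 for arsenic and 25 for thiram, 24 of the latter on red cells.

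Thiram at 25 µM raised histone genes of every core family while H4C3 fell. Of 62 members tested, 24 rose and 1 fell (40.3% called), beside 25.9% of 21307 genes (13.7% higher, 12.2% lower). The median log2 difference was 1.25 over the members and -0.11 over all genes, and it stayed at 1.25 with the 7 members that had an empty group at their bound. DESeq2 called 16 higher and 1 lower, which was 38.6% of the 44 members to which it gave an adjusted p, beside 43.3% of 15523 genes, so that here too the order of the shares turned with the test. Libraries were shallow here, at 2.46 to 6.29 M counts.

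H4C3 was at 261, 175, 113 and 171 CPM under thiram, against 212 to 474 in controls. It fell by 0.99 on the log2 scale (SE 0.18, adjusted p 5.93e-06, edgeR), with 1 library inside the control range. The other members together were at 306, 348, 666 and 397 CPM, all above the highest control at 186 CPM (mean 142 ± 24.0, SD, n = 15). The third replicate stood highest in that sum, and without it 15 members were higher and 1 lower.

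H3C10 was at 14.2, 43.9, 59.9 and 37.3 CPM under thiram and at 0 to 5.2 in controls (median 2.52). The groups did not overlap, and the log2 difference was 3.75 (SE 0.34, adjusted p 9.86e-18, edgeR). H2BC18 was at 8.97, 12.1, 41.6 and 36.8 CPM against 0 to 2, a log2 difference of 5.39. This H2B gene on chromosome 1 has an annotated span that overlaps FCGR1A on the other strand, so its reads are uncertain in the same way as those of H2BC12.

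H4C1, an H4 gene, was at 7.50, 10.4, 8.86 and 22.8 CPM against 0 to 0.909 (log2 6.09, adjusted p 8.64e-10, edgeR). H3C1 was at 0, 5.62, 17.5 and 13.2 CPM (log2 5.42), and its first replicate lay with the controls. H2BC8 was at 21.7, 29.5, 46.7 and 21.5 CPM against 0 to 5.90, and H2BC11 at 16.1, 12.8, 29.2 and 17 against 0 to 2.94. Neither pair of groups overlapped (log2 3.36 and 3.48). H2BC3 had 64 counts against 1 in the controls, a ratio of 560 (95% counting interval 97.0 to 22468). The pseudogenes H2AC9P and H4C10P had no count in the controls and were at least 111-fold and 167-fold higher.

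H2AC6 was at 84.5, 60.4, 131 and 29.4 CPM against 21.2 to 64 in controls (log2 0.78, adjusted p 0.0132, edgeR). H2BC12, at 17.8, 35, 39.2 and 1.24 CPM, and H1-2, at 10.8, 17.2, 13 and 3.73 CPM, were lowest in the fourth replicate and were called (log2 1.10 and 1.18). The controls of H2BC12 reached 26.2 CPM and those of H1-2 reached 12 CPM, so that both overlapped. H3C8 (0, 6.85, 16.7 and 12.8 CPM) and H1-1 (4.24, 5.45, 3.35 and 6.21 CPM) did not pass. The other 12 that rose, named after their values were seen, were H2AC8, H2AC17, H2AC19, H2BC4, H2BC6, H2BC9, H2BC15, H2BC17, H2BC21, H3C3, H3C7 and H3C12, with log2 differences from 1.31 (H2BC4) to 4.21 (H2AC17). In all, 7 of the 62 (11.3%) had groups that did not overlap, beside 8.05% of all genes tested, all 7 called.

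By family, 11 of 18 H2B, 5 of 15 H2A, 5 of 11 H3, 2 of 12 H4 and 1 of 6 H1 members rose. Promoters with the octamer had 13 higher of 22 and none lower, and those without it 7 of 29 and none lower. Of all genes, 25.9% were called. All promoters with the octamer are of H2A or H2B genes, so this split follows the family, and its part was not tested. Some of these genes share 1 octamer with a neighbour on the other strand and are counted separately. The printed upstream sequences of H2BC11 and H2BC12 hold the octamer and that of H3C10 does not. Of the 5 members listed as tailed, 4 rose. Their sum went from 67.8 CPM in controls to 132 CPM, and that of the other members without H4C3 from 73.8 to 297 CPM. The summed level of listed non-polyadenylated RNAs, such as the 7SK and 7SL RNAs, was 3.69 to 18.2 CPM under thiram and 0 to 9.08 in controls, and their part in the result was not tested.

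Arsenic and thiram were on different plates with their own controls. Of the members called, 9 were called under both, which is 42.9% of those of arsenic and 36% of those of thiram. These shares lie near the 40.3% of all members tested that thiram called and the 33.3% that arsenic called. The overlap is thus not read as a shared response. Higher under both were H1-2, H2BC11, H2BC12, H2BC15, H2BC4 and H2BC8, and H4C3 was lower under both. H3C10 and H2BC9, the latter named after its values were seen, fell under arsenic (H2BC9 log2 -2.14) and rose under thiram (1.76), where the arsenic call of H3C10 did not stand in either number set alone.

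**Figure D3:**
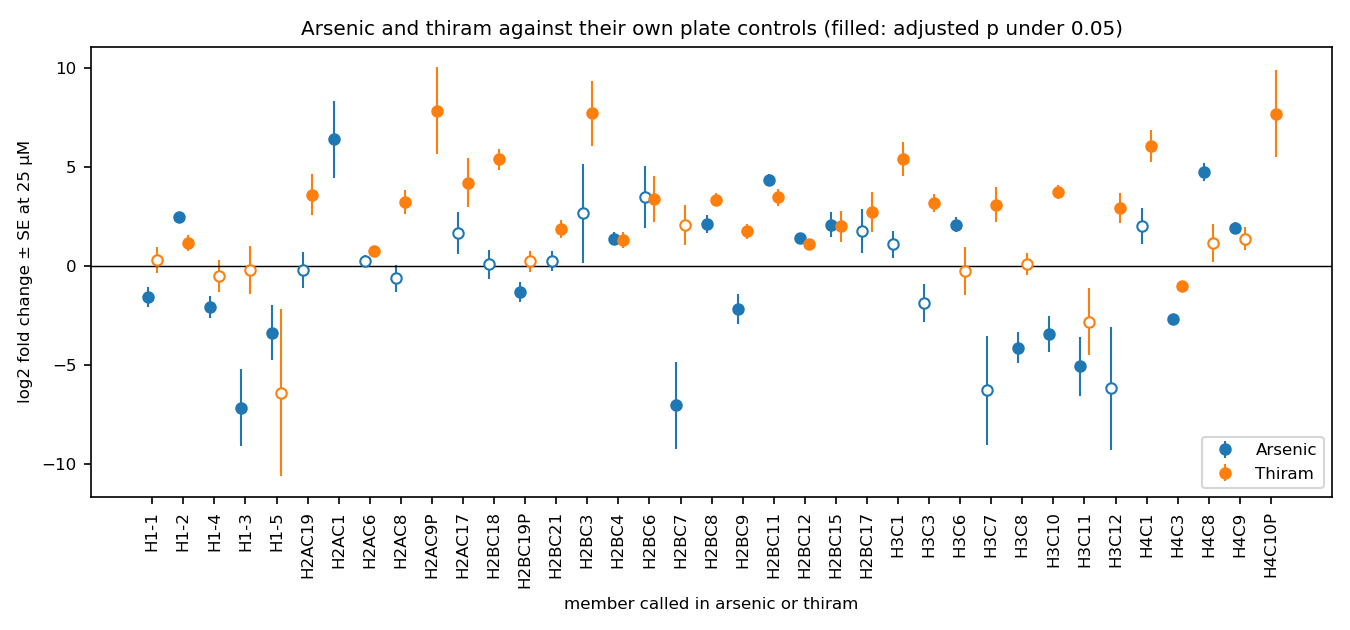
Log2 fold change at 25 µM with its standard error (bars) for the members called under arsenic (blue) or thiram (orange), filled where the adjusted p was under 0.05. H4C3 is filled below 0 in both, H2BC11 filled above 0 in both (4.35 and 3.48), and H3C10 filled on opposite sides (-3.42 and 3.75).

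Many H2A and H2B genes lie head to head and share the stretch between their starts. Pairs of an H2A and an H2B member on opposite strands with 400 or fewer bases between their starts numbered 14, with 186 to 390 bases between. Under arsenic, in none of the 14 were both partners called higher; 4 had the H2B gene alone higher and 1 the H2A gene alone. In 2 the H2B gene was lower, and in 7 neither was called. Under thiram, 3 had both higher, 4 the H2B gene alone and 1 the H2A gene alone. Partners that could not be tested count as not called here. Under arsenic these were H2BC1 (0.504 CPM against 0 in controls), H2AC5P and H2AC7. H2BC1 is the partner of H2AC1, the H2A gene called alone. Under thiram they were H2AC1, H2BC1, H2AC7 and H2AC5P, the partner of H2BC3. The 247 bases between H2BC11 and H2AC11, all of which stand in the sequence printed above, are 1 such stretch. H2AC11 was at 0.862 CPM under arsenic and 1.51 in controls (log2 -0.87, SE 0.71) and at 1.05 and 3.36 under thiram (-1.68, SE 0.93), and was not called in either. H2AC8 and H2BC8 were both called under thiram (log2 3.24 and 3.36), and under arsenic H2BC8 alone. The pairs were examined after the values were seen, and the difference between partners was not tested.

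The other genes of the histone pathway were read beside the members. Of all genes tested under arsenic, 41.4% were called (23.2% higher, 18.2% lower). Under arsenic, S-phase genes had 17 of 18 lower and none higher, with a median log2 of -1.77: PCNA, the sliding clamp, at -2.36, and the helicase subunits MCM2 at -1.36 and MCM3 at -2.91. Histone chaperones, which carry new histones to DNA, had 9 of 11 lower (ASF1A -0.43, ASF1B -1.52, CHAF1B -1.76). Genes of histone mRNA 3′ end processing had 2 higher and 7 lower of 12, with SLBP at -0.47, the U7 particle subunit LSM10 at -1.28 and ZNF473 at 1.42.

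Factors of histone gene transcription had 1 higher and 2 lower of 8: the octamer factor POU2F1 at 0.62, the kinase CDK2 at -1.14 and E2F1 at -2.05. Decay factors had 3 higher and 1 lower of 8, with the exonuclease XRN1 at 1.05, the uridylyltransferase TUT7 at 1.10 and EXOSC10 at -0.45. Both lists stand beside the 41.4% of all genes called under arsenic. Histone variants made outside S phase had 1 higher and 8 lower of 12, with H3-3A at -0.65, H3-3B at 0.20 and H2AZ1 at -0.22. Under thiram, 11 of 18 S-phase genes fell (median -0.52), and 5 of 11 chaperones fell. Of the genes of histone transcription 4 of 8 rose, and 3′ end processing had 4 higher and 3 lower. Of all genes tested under thiram, 25.9% were called (13.7% higher, 12.2% lower).

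Markers of mammary epithelium and of other cell types moved with arsenic too. Of all genes, 41.4% were called under arsenic and 25.9% under thiram. KRT5 and KRT14, basal keratins, had log2 differences of -3.36 and -2.03 and KRT17 of 0.84, with 1 higher and 6 lower of 7. Their summed level was 1135 to 1682 CPM under arsenic and 2159 to 2898 in controls. Markers of leukocytes, endothelium, fibroblasts and hepatocytes had 2 higher of the 4 that could be tested, COL1A1 at 1.20 and ALB with 63 counts against 0. Over all 7 the sum was 2.73 to 12.9 CPM against 0 to 5.10, and CD3E and CDH5 also had no count in the controls. Under thiram, 2 mammary markers rose and 3 fell, and none of the 2 tested markers of other cell types was called by edgeR. The part of these markers in the histone result was not tested.

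By library number, arsenic had 12 members higher and 5 lower in the lower-numbered libraries (38.1% of all genes called) and 8 and 1 in the higher-numbered (32.6%). Called in both with the same direction were 8: H1-2, H2BC11, H2BC12, H2BC8, H3C6, H4C3, H4C8 and H4C9. Thiram had 11 higher and 1 lower (16% of all genes called) and 14 and 1 (15.4%), and 7 were called in both: H2BC11, H2BC18, H2BC8, H3C10, H3C3, H4C1 and H4C3. Each of the 20 arsenic calls and the 25 thiram calls that could be tested in both sets had the same direction in both. They were picked from the fit of both sets together, so this agreement was close to fixed beforehand and lends them no support.

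DDE, a breakdown product of the insecticide DDT, was the only chemical on its plate. At 25 µM, 5 of 38 members rose and 5 fell, beside 7.77% of 13921 genes (3.56% higher, 4.22% lower). The median log2 difference was -1.13 over the members and -0.03 over all genes. H4C3 was at 95.7, 151, 168 and 200 CPM, above all 8 controls (9.76 to 78.6), a log2 difference of 1.53 (SE 0.30, adjusted p 0.0211, edgeR). H2BC12 was at 22.3, 5.65, 7.72 and 6.95 CPM, below all controls (24.5 to 49.4), with a log2 difference of -1.77.

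H1-2 was at 14, 5.10, 1.77 and 3.19 CPM against 13.6 to 69.8 (log2 -2.21), H3C10 at -2.61, H2BC21 at -2.85 and H4C8 at -3.28. Among the linker histones, H1-1 was at 2.25, 9.64, 9.65 and 9.01 CPM (log2 1.72, adjusted p 0.0496, edgeR), and H1-3 (2.61) and H1-4 (1.84) also rose, as did H3C3 (2.66). Of 38 members, 5 (13.2%) had groups that did not overlap, beside 5.93% of all genes tested, 3 of them called. S-phase genes had 15 of 18 higher, beside 3.56% of all genes, with a median log2 of 1.01. Without the second or the third DDE replicate, no member was called at 25 µM by edgeR, and 17 of 39 and 16 of 38 had an unadjusted p under 0.05.

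The libraries numbered 1, 8, 9 and 16 stood apart on this plate. H4C3 was at 9.76 and 39 CPM in the 2 controls with these numbers and at 39.9 to 78.6 in the other 6. In the DDE libraries it was at 61.2 to 95.7 (4 libraries) and 117 to 200 (12 libraries). H2AC6 was at 278 to 288 CPM against 104 to 170 in controls, and at 108 to 185 against 16.8 to 58.5 under DDE. The mean log2 level of S-phase genes was 4.93 to 5.36 against 5.89 to 6.81 in controls, and 6.08 to 6.93 against 7.14 to 7.52 under DDE. The numbers thus went with the histone values in controls and dosed libraries alike, and their part in the result was not tested.

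Without these 6 libraries, a choice made after the data were seen, 15, 15, 19 and 19 of 36 members were called at 0.025, 0.25, 2.5 and 25 µM, beside 14.9%, 17.6%, 20.8% and 19.2% of all genes. Of these, 3, 2, 5 and 5 were higher. The same 11 were called at all 4 doses: H1-2, H2AC11, H2AC6, H2BC11, H2BC12, H2BC21, H2BC4, H2BC5, H4C14, H4C3 and H4C8. H4C3 was the member of these that was higher, with log2 differences of 1.24, 1.43, 1.39 and 1.51. H2AC6 was at -2.03, -2.27, -2.79 and -2.38, and H2BC12 at -0.79, -1.08, -1.73 and -2.39. The 4 doses shared their controls.

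**Figure D4:**
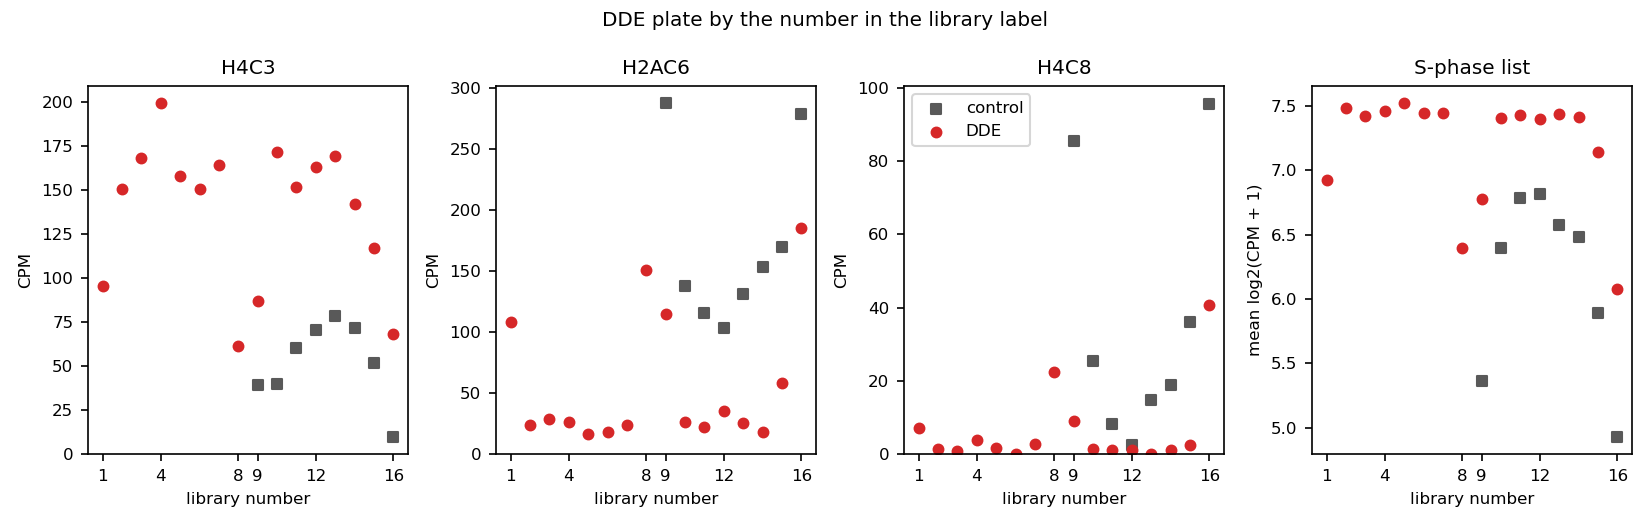
H4C3, H2AC6 and H4C8 in CPM and the mean log2(CPM + 1) of the S-phase genes, against the number in the library label, for controls (squares) and DDE libraries of all doses (circles) of plate 2250-AT. At numbers 1, 8, 9 and 16, H2AC6 is high and H4C3 low in comparison with the neighbouring numbers of the same kind.

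Cadmium at 25 µM rested on 2 libraries of 1.43 and 1.45 M counts, in which mitochondrial genes took 43.1% of counts on average against 9.93% in controls. H4C3 was at 89.1 and 33.6 CPM, below all controls (log2 -1.92, adjusted p 0.00166, edgeR). Of 63 members, 2 rose and 1 fell, beside 11% of all genes. Those that rose were H4C1 (8.79 and 16.8 CPM, 19 counts) and H1-6, a testis linker histone (17.6 and 0 CPM, 14 counts). H2AC6 was at 49 and 19.6 CPM, H2BC12 at 15.1 and 18.2, H3C8 at 0 and 9.80, H1-1 at 1.26 and 0, and H1-2 at 0 and 7, all within the control ranges except the higher value of H2AC6. The members' median log2 was -3.79 and that of all genes -1.42, but 39 members had no count in a group, and at their bound the median was 0. With DESeq2 both medians were above 0, at 0.94 and 0.07, and 5 members rose and 2 fell of the 41 given an adjusted p. That was 17.1% of those members, beside 41.7% of 15816 genes. No member was called by edgeR when the library set aside for its plate barcode was added, with 3 of 58 at an unadjusted p under 0.05. The non-polyadenylated RNAs summed to 59.8 CPM against 4.95 in controls, and the part of depth and RNA make-up in these values was not tested.

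Copper at 25 µM left H4C3 at 188, 247, 200 and 266 CPM, within the controls. H2AC6 was at 27.7, 16.1, 10.2 and 11.3 CPM, H2BC12 at 14.6, 15.4, 7.39 and 5.40, and H3C8 at 5.77, 7.38, 4.58 and 3.47. H1-1 was at 2.19, 2.50, 2.99 and 2.39 CPM and H1-2 at 7.17, 8.48, 1.59 and 3.32. None of the 6 was called, and all their values lay within the control ranges. Of 63 members, 1 rose and 1 fell, beside 5.09% of all genes. H3C10 fell by 1.91 on the log2 scale (adjusted p 0.0275, edgeR). H2BC14 had 41 counts against 1, a ratio of 116 with a counting interval of 19.7 to 4703. With DESeq2 none of the 20 members given an adjusted p was called, beside 8.86% of 12519 genes, and 3 had an unadjusted p under 0.05.

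Lead at 25 µM had no member called by edgeR, beside 3.85% of all genes, with 2 members at an unadjusted p under 0.05. MPB had none beside 1.38%, with 8 at an unadjusted p under 0.05. Within number sets, however, edgeR called H4C3 under MPB in both, with the same direction. DESeq2 called none for lead or MPB, but gave an adjusted p for 12 and 2 members. Of all genes given one, it called 8.31% for lead and 6.95% for MPB. The other 14 chemicals had no call in 822 member tests by edgeR, beside 0.0186% of all gene tests, and none by DESeq2 where it gave an adjusted p. At an unadjusted p under 0.05, 56 of those tests (6.81%) passed, against 6.28% of all gene tests. Their H4C3 means ran from 260 CPM (mercury) to 419 (DCP_25) and the members' sums from 369 to 565 CPM.

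**Figure D5:**
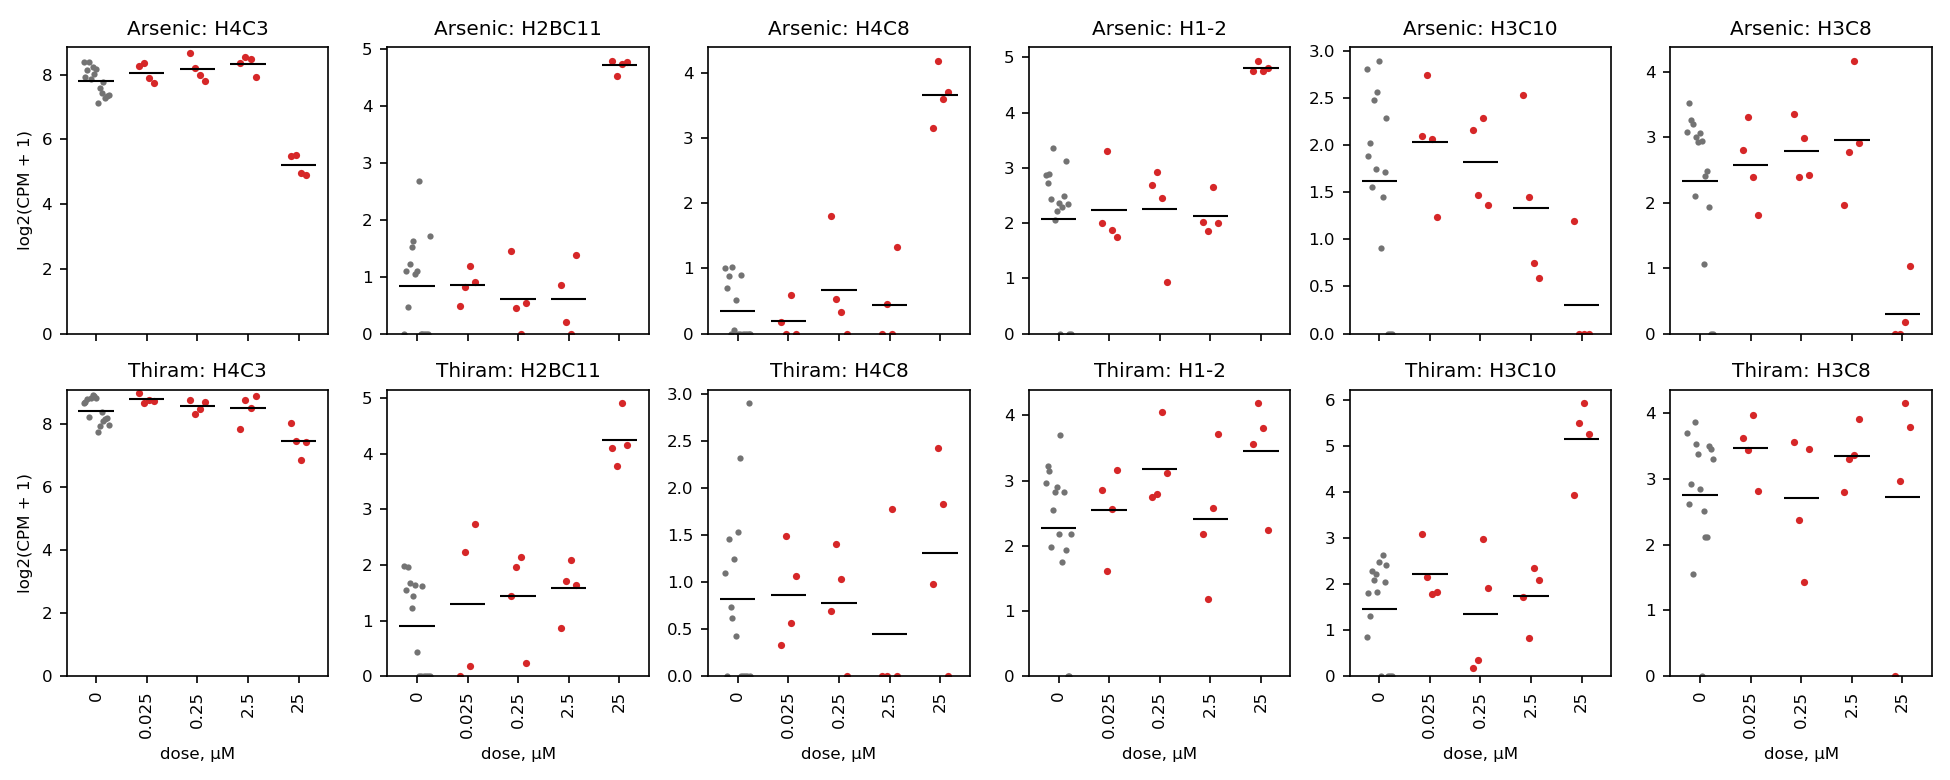
Log2(CPM + 1) of 6 members in the libraries of arsenic (top) and thiram (bottom), against dose in µM with controls at 0, 1 point per library and the mean as a line. The arsenic groups at 0.025 to 2.5 µM overlap the controls for all 6, and at 25 µM H4C3 lies below and H2BC11, H4C8 and H1-2 lie above them.

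At 2.5 µM, 5 of 1233 member tests over the 21 chemicals were called, beside 0.412% of all gene tests. Arsenic had 1, beside 1.96% of its genes: H2AC6 at 9, 19.9, 3.90 and 5.00 CPM against 8.51 to 45.7 (log2 -1.48, adjusted p 0.0131, edgeR). Its mean over the arsenic doses was 16.3, 13.6, 9.45 and 34.9 CPM, against 26.5 in controls. Copper had 2, beside 3% of its genes: H2AC6 at 8.49, 10.0, 7.53 and 5.00 CPM (log2 -1.89, adjusted p 0.000151, edgeR) and H3C6 (-2.83). Arsenic and copper shared these controls. DDE had H4C3 (1.33) and H1-1 (2.34) higher, beside 0.496% of its genes.

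At 0.25 µM the only call in 1233 tests, beside 0.0748% of all gene tests, was H4C3 under PFDA (0.642% of its genes). It was at 1018, 400, 376 and 420 CPM against 253 to 578 (log2 0.61, adjusted p 0.0167, edgeR). The first replicate stood far above the rest, and without it the gene was not called. At 0.025 µM no member was called by edgeR beside 0.0104% of all gene tests, 94 of 1233 (7.62%) passed an unadjusted p under 0.05, and DESeq2 called 1, H2AC8 under cadmium.

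A linear trend over the 4 doses, which leaves the controls out, was called in 34 of 1233 member tests, beside 3.12% of all gene tests. Arsenic had 9 members with a rising and 9 with a falling trend (29.7% of its genes), with H4C3 at -0.85 and H2BC11 at 1.47 log2 per 10-fold step of dose. Thiram had 13 rising and 1 falling (18.5%), with H2BC18 at 1.70, H2BC8 at 1.10 and H3C10 at 1.06 among the first and H4C3 at -0.38. Cadmium had H2AC19 rising and H4C3 falling (8.96%). Copper (1.71%) and lead (0.868%) had none by edgeR, with 6 and 0 members at an unadjusted p under 0.05. DDE had no trend called in its 38 members or in any of 13921 genes, with 1 member at an unadjusted p under 0.05. With the replicate number as a block, copper and lead had 1 each.

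Some members cannot be told apart by their sequence. In 11 members, 50% or more of the 50-base windows of their transcripts occur in another member: H2AC13, H2AC14, H2AC17, H2AC18, H2AC19, H3C14, H3C15, H4C11, H4C12, H4C14 and H4C15. H2AC17 also overlaps H3C12, so that the calls of H2AC17 and H2AC19 under thiram and of H2AC19 under cadmium are uncertain, as is that of H4C14 under DDE. The span of H2BC15 covers H2BC16P and H2AC16. H4C3, H2BC8, H3C10 and H4C8 shared no such window, and 34 members in all shared none.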

How the data were processed

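Whole-number read counts per gene symbol, 1 table per library, were deposited by the authors and hold no normalization, as the differing totals show. Per the submitters' processing notes, FastQC, MultiQC, STAR and featureCounts were used with GRCh38. Of their versions, the annotation, the strand setting and any filter on symbols, nothing is given in the sources used here. Per the labels, cDNA was made directly from lysates and tagged by well (plexWell). No molecular identifiers are mentioned, so counting intervals and floors cover counting error only.

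Counts were fitted per plate with edgeR 4.0.16 (R 4.3.3): genes filtered by group (minimum count 10, minimum total 15), TMM scaling, 1 mean per chemical and dose, quasi-likelihood test of each dose against its own controls, Benjamini-Hochberg over all genes of the comparison. The trend was a linear contrast over the 4 doses. Alternatives were DESeq2 1.42.0, RLE scaling, no filter, the 2 groups alone, a term for library number, a replicate block and each replicate left out. Fits within each number set and without DDE-plate libraries 1, 8, 9 and 16 were added after the data were seen. The fits were tested on simulated counts with 200 changed genes. CPM are TMM-scaled. A floor is 3 counts over a group.

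The members, gene lists and comparisons were chosen with earlier results of these data known. Values per library are given for the 6 members with the highest mean in the second run. Named beside them are, per chemical at 25 µM, up to 6 called members higher and 6 lower by log2 difference, and up to 3 genes of each other list called under arsenic. Other names were chosen after their values were seen. Same-numbered libraries of the second run were checked for shared deviations from their group means. Every correlation exceeded 0.1 for copper, lead, mercury and PFOA, and not for the others, arsenic (lowest -0.0073) included. The main fits held no pairing for any chemical. The replicate block was an alternative for the trends alone, run for all chemicals of the second run. Sequences are from RefSeq (GRCh38.p14) and GENCODE v29. One cadmium library of 25 µM with the barcode of another plate was set aside. The controls of the DDE plate, whose barcode also differs from the plate named, were kept.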

Additional observations from a re-analysis of the deposited data

Results flagged for a closer look

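In groups of 4 libraries, a library was singled out where its gap to the nearest other, divided by the range of the group, exceeded Dixon's 95% critical value. Chance gives about 1 in 20 groups, and 7 of 98 were found. H4C3 under PFDA at 0.25 µM had its highest library at 1018 CPM, with the others at 376 to 420. Under DDE at 25 µM, the library numbered 1 was lowest for H1-1 (2.25 CPM, others 9.01 to 9.65) and highest for H2BC12 (22.3 CPM, others 5.65 to 7.72). Under arsenic at 25 µM, H2BC8 had its lowest library at 1.99 CPM (others 6.22 to 6.89) and H3C8 its highest at 1.04 CPM (others 0 to 0.130). Also under arsenic, H3C10 at 1.29 CPM and H1-5 at 0.429 CPM were each detected in 1 library and at 0 in the other three.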

How the results depend on the processing

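No member called at 25 µM turned its direction under the alternatives that gave it a value. Medians over the members did: with DESeq2 that of cadmium went from -3.79 to 0.94 and that of lead from -0.01 to 0.10. Lead's was also above 0 with a number term (0.08) and in the higher-numbered libraries (0.16), and it was 0 without the filter and without replicate 3. In the higher-numbered libraries the medians of arsenic and copper were 0. The share of members called, set against that of all genes, turned with DESeq2 for arsenic and thiram. For the calls at 25 µM, leaving out a replicate gave 18 to 22 members for arsenic and 16 to 24 for thiram (16 without replicate 3). For DDE it gave 0 to 14, and for copper 0 to 2. Cadmium had 2 libraries at 25 µM, replicates 1 and 2. Leaving out either left a single library, so no count is given for it. Within number sets, arsenic gave 9 in the higher-numbered, thiram 12 and 15, copper 1 and 0, MPB 3 and 1, and lead 1 in the lower-numbered. The member that MPB had in both sets was H4C3. DESeq2 gave 7 for cadmium, beside 41.7% of all genes given an adjusted p, and 0 for copper, beside 8.86%. The added cadmium library gave 0, and leaving out the end numbers gave 19 for DDE. Lead had 1 with the 2 groups alone, with a number term and without the filter. MPB had 2 without the filter. The other 14 chemicals had 1, 1 and 9 under those same 3 alternatives. Where no share of all genes is printed for an alternative, the counts in this section do not tell whether the members or all calls moved.

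At 2.5 µM the 5 calls became 11 with a number term and 12 without the filter, and 1 to 21 when a replicate was left out. At 0.25 µM the single call became 8 with DESeq2 and with a number term, 11 without the filter and 1 to 12 with a replicate left out. At 0.025 µM there were 1, 2 and 7 under those 3, and 0 to 11 with a replicate left out. Of all gene tests, DESeq2 called 0.443% at 0.25 µM and 0.0998% at 0.025 µM, against 0.0748% and 0.0104% by edgeR.

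For the trends, cadmium gave 8 with DESeq2, 1 with a number term, without the filter and with the replicate block, 0 with the added library and in the lower-numbered libraries, and 0 to 1 with a replicate left out. Thiram gave 6 in the lower-numbered libraries and 9 to 13 with a replicate left out. Copper gave 1 with a number term, 1 with the replicate block and 2 in the lower-numbered libraries, and lead 1 with the replicate block and 1 in the lower-numbered. The replicate block gave 10 rising and 11 falling for arsenic and 13 and 1 for thiram. The summed CPM of the members under cadmium was 140.1 on total counts and 264.8 with TMM.

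Of 624 named-gene results under alternatives, 501 kept their call and 123 lost it, in the same direction. Called under all 11 alternatives run were 8 members for arsenic (H1-2, H2BC11, H2BC12, H2BC8, H3C6, H4C3, H4C8 and H4C9) and 6 for thiram (H2BC11, H2BC18, H2BC8, H3C10, H3C3 and H4C3), and H2AC1 was called for arsenic in the 7 that gave it a value. The cause of these shifts was not tested. Members with a few counts per library, most of H2A and H3, are limited by depth, and a group of 4 libraries at 0 counts allows up to the floor of 3 counts.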

Other observations

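The cadmium library of 25 µM that carried the barcode of another plate had 1.28 M counts. H4C3 was at 316 counts, or 246 CPM without scaling, and the members summed to 358 CPM with 10 of them detected. Mitochondrial genes took 9.99% of its counts, against 39.3% and 46.8% in the 2 cadmium libraries used and 7.87% to 11.4% in the controls of plate 3153-AT.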
